A study of Rattus norvegicus with 138 samples.

Results

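The 6 genes described here mark cholinergic neurons and motor neurons: Chat, Slc5a7, Slc18a3, Ache, Isl1 and Prph. They were chosen by gene symbol from the 32883 rows of the count tables for 3 rat brainstem regions, and all 6 were found and passed the filter on low values in every region. Their identifiers in the tables are ENSRNOG00000025012 (Chat), ENSRNOG00000010597 (Slc5a7), ENSRNOG00000062141 (Slc18a3), ENSRNOG00000050841 (Ache), ENSRNOG00000012556 (Isl1) and ENSRNOG00000052880 (Prph). The libraries came from female Wistar Kyoto rats (WKY/NHsd, normotensive) and spontaneously hypertensive rats (SHR/NHsd), an inbred strain in which blood pressure rises with age. Micropunches of the nucleus of the solitary tract (NTS), the caudal ventrolateral medulla (CVLM) and the rostral ventrolateral medulla (RVLM) were taken from each rat, and the punches of both sides formed 1 sample. WKY gave 5 rats at 8 weeks, 4 at 10 weeks and 3 at each of 12, 16 and 24 weeks of age. SHR gave 5 rats at each of 8 and 10 weeks and 6 at each later age, so that 46 rats each provided 1 library per region. The sources used here name no treatment, and the strains differ across the whole genome, so a strain difference is not that of a single gene.

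Cholinergic neurons make acetylcholine from choline and acetyl-CoA, pack it into synaptic vesicles and recover choline from the cleft after the transmitter is broken down. In the medulla the main cholinergic cells are motor neurons, among them those of the dorsal motor nucleus of the vagus next to the NTS and those of the nucleus ambiguus and the facial nucleus in the ventral medulla. Chat encodes choline acetyltransferase, the enzyme that makes acetylcholine. Slc18a3 encodes the vesicular acetylcholine transporter, Slc5a7 the high-affinity choline transporter that takes choline back into the terminal, and Ache acetylcholinesterase, which breaks acetylcholine down and is also made by cells that do not release it. Isl1 encodes a LIM homeodomain transcription factor of motor neurons, and Prph encodes peripherin, an intermediate filament protein of neurons with axons outside the central nervous system.

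Chat and Slc18a3 form the cholinergic gene locus: Slc18a3 lies within Chat on the same strand, and their annotated starts are 602 bases apart. Reads from sequence that both genes share could therefore have been assigned to either, so the separate levels of Chat and Slc18a3 are uncertain to that extent. The promoters of these 2 genes, of Slc5a7 and of Isl1 are shown because these 4 genes moved together in the results that follow. Each runs 5′ to 3′ on the strand of the gene, from 250 bases before to 50 bases after the annotated start (RefSeq, assembly GRCr8), and capitals mark CAGCACC, the left core of the RE1 element bound by the repressor REST, or TATAAA, the TATA box. The windows were chr16:7723367-7723666 (minus strand) for Chat, chr16:7722765-7723064 (minus) for Slc18a3, chr9:7953460-7953759 (minus) for Slc5a7 and chr2:49823393-49823692 (minus) for Isl1.
Chat: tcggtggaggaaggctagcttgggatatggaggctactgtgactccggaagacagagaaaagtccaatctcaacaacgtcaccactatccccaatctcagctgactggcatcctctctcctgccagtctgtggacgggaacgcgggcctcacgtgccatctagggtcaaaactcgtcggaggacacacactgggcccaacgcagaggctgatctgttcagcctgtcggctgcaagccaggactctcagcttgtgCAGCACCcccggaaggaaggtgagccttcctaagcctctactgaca
Slc18a3: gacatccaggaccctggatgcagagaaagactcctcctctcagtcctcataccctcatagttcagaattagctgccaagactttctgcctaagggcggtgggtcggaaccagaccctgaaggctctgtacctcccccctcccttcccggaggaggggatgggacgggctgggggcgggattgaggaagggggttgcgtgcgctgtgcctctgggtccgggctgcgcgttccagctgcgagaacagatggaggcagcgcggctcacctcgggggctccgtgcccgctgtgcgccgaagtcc
Slc5a7: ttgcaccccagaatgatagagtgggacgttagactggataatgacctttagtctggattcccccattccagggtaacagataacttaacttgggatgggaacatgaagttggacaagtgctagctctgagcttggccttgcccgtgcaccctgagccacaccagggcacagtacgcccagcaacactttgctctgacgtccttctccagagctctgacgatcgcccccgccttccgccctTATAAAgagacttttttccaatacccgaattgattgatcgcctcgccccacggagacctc
Isl1: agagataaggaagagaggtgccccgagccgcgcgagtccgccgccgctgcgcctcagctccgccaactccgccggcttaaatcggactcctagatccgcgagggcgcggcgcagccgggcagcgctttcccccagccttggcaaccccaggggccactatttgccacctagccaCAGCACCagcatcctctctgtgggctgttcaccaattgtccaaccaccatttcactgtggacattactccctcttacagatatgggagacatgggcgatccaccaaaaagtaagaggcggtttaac
On both strands, CAGCACC was present in 6.78% and TATAAA in 14.2% of 33469 rat promoters of this length. CAGCACC occurred once in the Chat and once in the Isl1 window, and TATAAA once in the Slc5a7 and once in the Prph window. Neither motif was found in the Slc18a3 or Ache window, and TAATTA, a homeodomain core motif found in 5.36% of all promoters, was found in none of the 6. The Ache window was the richest in G and C, at 75.0%, against 53.0% to 64.3% for the other 5.

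Total counts per library ranged from 5904570 to 17889406 with a median of 10143018, and levels are given as CPM, the count of a gene scaled to a common library total, with edgeR's TMM factors. Within each region the 14 libraries with names ending in 2 comprised all 10-week rats, WKY 8-week replicates 3 to 5 and 1 SHR rat each at 12 and 24 weeks, and the other 32 ended in 1. What this number stands for was not given, and it is carried through the results as a possible batch. The 2 CVLM libraries titled as replicate 5 of the WKY and SHR 8-week groups carry an age label of 10 weeks and were kept at 8 weeks. The markers of catecholamine neurons were present in all 3 regions: Th, the rate-limiting enzyme of catecholamine synthesis, averaged 132 CPM in the NTS, 134 CPM in the CVLM and 54.5 CPM in the RVLM, and Pnmt, which makes adrenaline, averaged 4.57, 42.8 and 23.8 CPM. The RVLM punches thus had a lower mean Pnmt level than the CVLM punches.

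All 6 genes were highest in the RVLM, and 5 of them were lowest in the CVLM with the NTS between. Chat ranged from 78 to 359 CPM with a median of 243 across the 46 RVLM libraries, from 23.6 to 124 with a median of 61.0 in the NTS and from 7.07 to 35.9 with a median of 18.5 in the CVLM. The RVLM library exceeded both the NTS and the CVLM library of the same rat in 46 of 46 rats, and the NTS exceeded the CVLM in 44. Averaged over strains and ages within rats, Chat in the NTS was 0.259 times its RVLM level, and in the CVLM it was 0.0744 times that level.

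Slc18a3 and Slc5a7 followed the same order. Slc18a3 averaged 458 ± 140 CPM (SD, n = 46) in the RVLM, 92.1 ± 42.3 in the NTS and 24.2 ± 10.6 in the CVLM. Slc5a7 averaged 620 ± 231, 164 ± 66.7 and 62.0 ± 21.5 CPM, respectively. For each of these transporters the RVLM library was the highest of its rat in all 46 rats.

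Isl1 showed the widest gap between the RVLM and the NTS. Its lowest RVLM library, at 14.7 CPM, was above its highest NTS library, at 9.72 CPM, and it was the only one of the 6 genes for which these 2 regions did not overlap, as was the case for 1.77% of all genes tested. Its NTS level was 0.121 times the RVLM level (log2 fold change -3.04, SE 0.10, adjusted p = 2.67e-43). In the CVLM Isl1 averaged 2.23 ± 1.05 CPM (n = 46) on 4 to 63 counts per library, which limits its precision there. Prph averaged 346 ± 185 CPM in the RVLM, 89.6 ± 42.6 in the NTS and 42.7 ± 17.4 in the CVLM, and in 44 of 46 rats its RVLM library was above the NTS library.

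Ache stood apart. It averaged 355 ± 46.6 CPM in the NTS, 412 ± 44.1 CPM in the CVLM and 536 ± 70.9 CPM in the RVLM (n = 46 each), so that the CVLM, the lowest region for the other 5 genes, was above the NTS in 38 of 46 rats. The NTS level was 0.866 times that of the CVLM (log2 -0.21, SE 0.03, adjusted p = 1.83e-09) and 0.669 times that of the RVLM. Its coefficient of variation across the libraries of a region was 10.7% to 13.2%, against 28.3% to 53.5% for the other 5 genes.

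**Figure D1:**
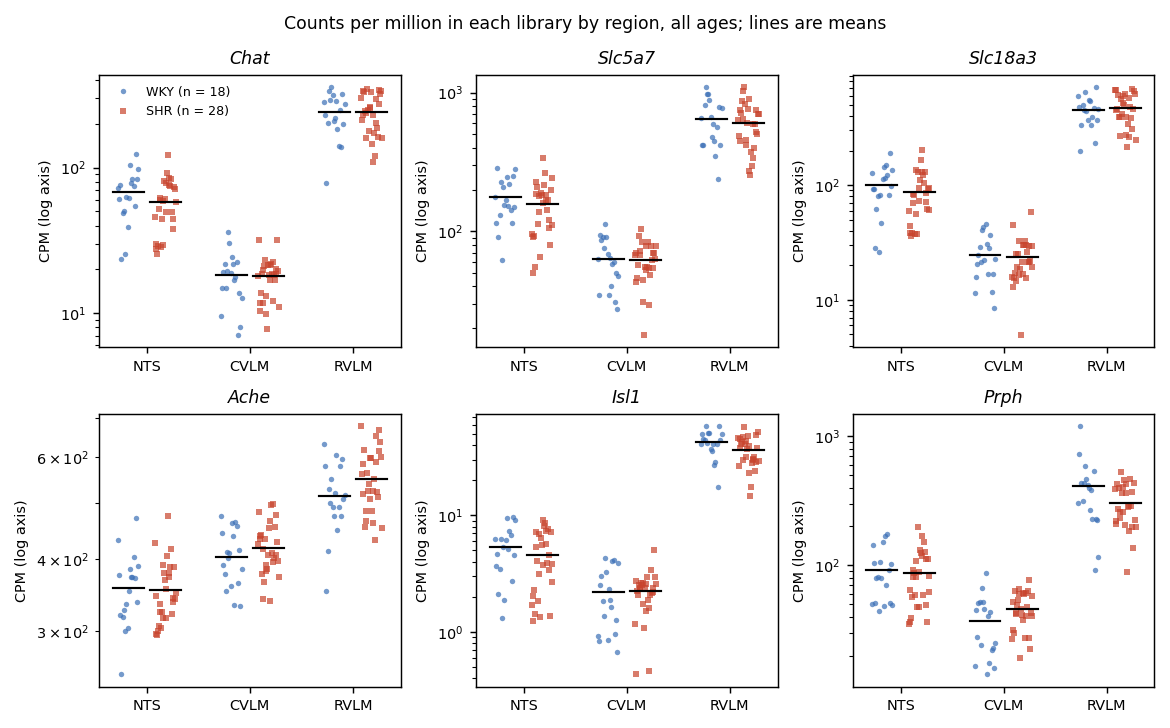
Level of each gene in CPM (log axes) by region, 1 point per library, WKY as blue circles (n = 18) and SHR as red squares (n = 28), with a line at each mean. The mean of each gene is highest in the RVLM, and Ache has the smallest steps between regions (means of 355, 412 and 536 CPM).

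In the fit over the libraries of all 3 regions with the rat as a block, all 18 comparisons of the 6 genes between pairs of regions passed an adjusted p of 0.05 (edgeR quasi-likelihood test, Benjamini-Hochberg over 14043 genes). Among all genes tested, 66.3% passed for NTS against CVLM, 73.1% for NTS against RVLM and 54.2% for CVLM against RVLM, so passing the test was common between these regions. The median log2 fold change of the 6 genes was -1.94 for NTS against RVLM and -3.54 for CVLM against RVLM, where the median over all genes was -0.005 and -0.004. In punched tissue, fewer cells of a type and less RNA per cell cannot be told apart.

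Of the 16 listed motor neuron genes, 6 passed the filter in all 3 regions, and all 6 of these were highest in the RVLM: log2 fold changes against it were -3.60 to -0.24 for the NTS and -4.73 to -1.17 for the CVLM, and each passed the test. Genes that passed the filter in fewer regions are left out of this count. Over all genes tested, 73.1% passed the test for NTS against RVLM and 54.2% for CVLM against RVLM. Chodl, a marker of fast motor neurons, averaged 40.3 CPM in the NTS, 40.6 CPM in the CVLM and 459 CPM in the RVLM. Calca, which encodes the peptide CGRP, averaged 51.5, 16.7 and 406 CPM. Kcnj14, a potassium channel, averaged 27.8, 20.5 and 241 CPM. The study itself had named Kcnj14 from these libraries for its correlation with acetylcholine genes. Mnx1, Lhx3, Phox2a, Tbx2, Tbx20 and Mmp9 did not pass the filter in any region, and Isl2 and Lhx4 passed it in the RVLM alone.

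Among the 9 further genes of acetylcholine synthesis, transport and breakdown, NTS against RVLM gave 7 lower and 1 higher (median log2 fold change -0.42). CVLM against RVLM gave 5 lower and none higher (median -0.28), and NTS against CVLM gave 4 higher and 2 lower. Over all genes tested, 73.1%, 54.2% and 66.3% passed in these 3 comparisons, so such counts were common between these regions. Slc10a4, a transporter of cholinergic vesicles, averaged 13.1, 4.60 and 64.8 CPM in the NTS, CVLM and RVLM, and Acly, an enzyme that makes acetyl-CoA, 590, 555 and 1690 CPM. Bche, the second cholinesterase, was highest in the NTS, at 18.2 CPM against 10.0 and 9.56. The neurofilament genes took another order than Prph: Nefh, Nefm, Nefl and Ina were each lower in the NTS than in the CVLM, by 1.23, 0.79, 0.61 and 0.68 on the log2 scale, whereas Prph was 2.14-fold higher there. Summed markers of all neurons averaged 4150 CPM in the NTS, 6200 CPM in the CVLM and 6220 CPM in the RVLM, and of the 5 single markers 3 were higher and 2 lower in the CVLM than in the RVLM. Oligodendrocyte markers summed to 27800, 49800 and 42800 CPM.

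Within a region, the cholinergic genes rose and fell together from rat to rat. After the mean of each strain and age group was removed, the log2 CPM of Slc18a3 correlated with that of Chat at Pearson's r = 0.92 for the NTS, 0.86 for the CVLM and 0.90 for the RVLM (n = 46 rats each, adjusted p = 1.87e-05 in all 3, permutation of rats within groups, 15 pairs tested). That p is the smallest that 100000 permutations can give after adjustment. Spearman's rho was 0.88, 0.83 and 0.90, and r was 0.89, 0.83 and 0.89 without the 2 rats farthest from the median in Chat. The nesting of these genes touches this pair.

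Slc5a7 and Isl1, which share no locus with Chat, also followed it. For Slc5a7 r was 0.80 for the NTS, 0.63 for the CVLM and 0.69 for the RVLM, with rho of 0.76, 0.64 and 0.67. For Isl1 r was 0.77, 0.66 and 0.65, with rho of 0.69, 0.63 and 0.71. Without the 2 farthest rats these values of r were 0.76, 0.61 and 0.66 for Slc5a7 and 0.73, 0.61 and 0.72 for Isl1. All 6 of these pairs passed an adjusted p of 0.05 by the permutation test, which was not run on genes outside the 6. Ranked by r with Chat among all genes kept, Slc5a7 and Isl1 were at 12 and 15 of 13793 in the NTS. They were at 9 and 7 of 13408 in the CVLM and at 255 and 400 of 13411 in the RVLM. An r over 0.8 was reached by 10, 1 and 80 genes in the NTS, CVLM and RVLM. In the RVLM the covariation with Chat was thus shared with many other genes.

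Ache followed Chat in the NTS (r = 0.71, rho = 0.70, r = 0.62 without the 2 farthest rats) and in the RVLM (r = 0.80, rho = 0.79, r = 0.73 without them). By r with Chat, Ache ranked at 29 of 13793 genes in the NTS and at 86 of 13411 in the RVLM. In the CVLM its r was 0.32, with an adjusted p of 0.0581 by permutation, and it ranked at 232 of 13408 genes. Prph did not pass the test in any region: r was 0.33 in the NTS (adjusted p = 0.0581, permutation), 0.30 in the CVLM (0.0655) and 0.03 in the RVLM (0.879). By r with Chat, Prph still ranked at 629 of 13793 genes in the NTS and at 297 of 13408 in the CVLM, and at 6119 of 13411 in the RVLM. The WKY 8-week replicate 3 library of the RVLM, with the highest Prph level of all (1190 CPM) and the lowest Chat level of that region (78 CPM), is 1 of the 2 left out in the RVLM, and without them r for Prph was 0.26. Within the 32 libraries with names ending in 1, r with Chat in the NTS was 0.90 for Slc18a3, 0.79 for Slc5a7, 0.72 for Isl1 and 0.70 for Ache, and 0.12 for Prph. Prph in the 14 NTS libraries ending in 2 had an r of 0.94 with Chat, and the difference between these sets of libraries was not tested.

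**Figure D2:**
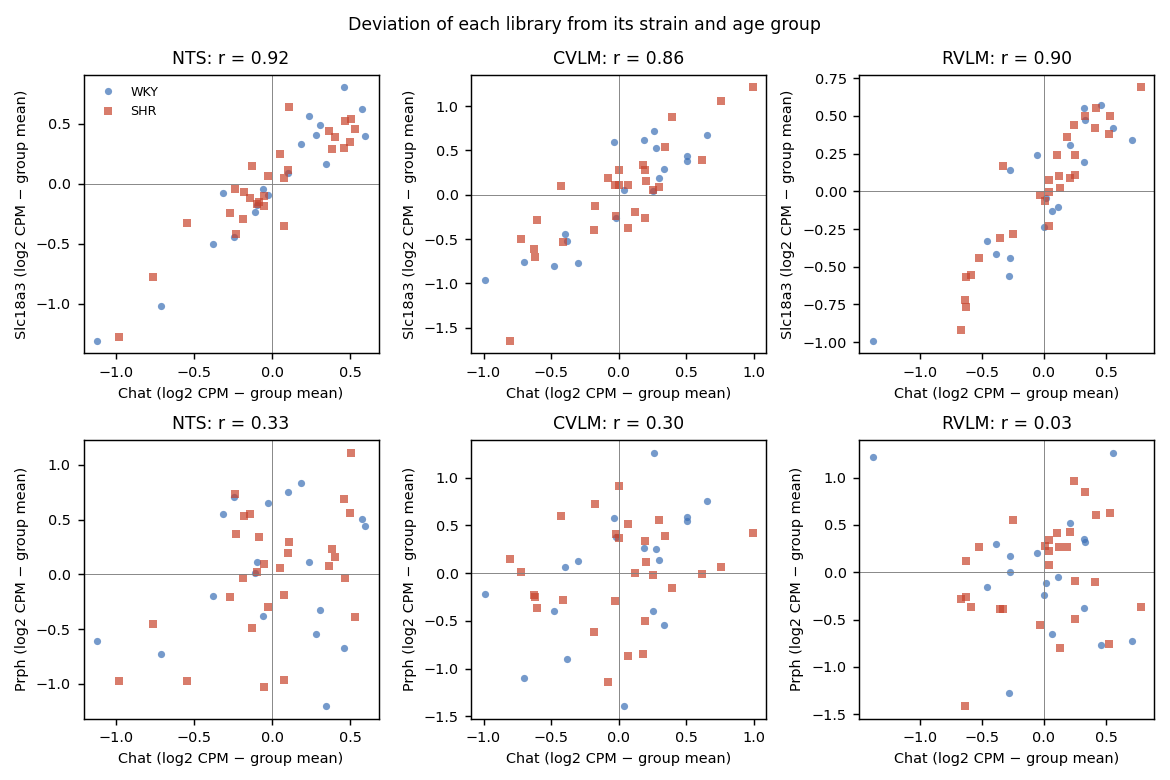
Deviation of log2 CPM from the mean of the strain and age group for Slc18a3 (top row) and Prph (bottom row) against that of Chat, 1 point per rat (n = 46), by region, WKY as circles and SHR as squares. Slc18a3 lies along a line with Chat in each region, at r = 0.92, 0.86 and 0.90, and Prph is scattered, at r = 0.33, 0.30 and 0.03.

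The genes outside these lists whose deviations were most like those of Chat in the NTS were Susd2, AC141959.1 and Vwa7, at r = 0.83 each, followed by Dysf (0.82) and Arhgap36 (0.81). In the RVLM they were Kcng4 (0.95), Nyap2 (0.94), Susd2 (0.94), Kctd10 (0.92) and Trpv2 (0.92), and in the CVLM Anxa2 (0.74), Susd2 (0.66), Hspb8 (0.64), Fxyd7 (0.60) and Arhgap36 (0.54). Susd2 was among the 5 in each of the 3 regions. These values describe 46 rats per region, and the likeness was searched over all genes kept there. Of the listed genes, Kcnj14 (0.82), Calca (0.81) and Slc10a4 (0.80) were most like Chat in the NTS, and Acly (0.92) and Kcnj14 (0.87) in the RVLM. The study had already reported from these libraries that Kcnj14 correlated with acetylcholine genes, so its r is no independent support. In the RVLM, Ina (-0.61), Pnmt (-0.55) and the oligodendrocyte gene Mog (-0.50) went the other way, so punches with more Chat RNA held less of these. The part of this mix of tissue in the correlations was not tested.

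No relation was detected between the Chat level of a rat in one region and its level in another. The correlation of the deviations of Chat between regions of the same rat was -0.05 for NTS and CVLM, -0.08 for NTS and RVLM and 0.13 for CVLM and RVLM (n = 46, Spearman's rho 0.01, 0.03 and 0.15, adjusted p = 0.802, 0.802 and 0.666 by permutation, 18 pairs tested). Slc18a3 gave -0.13, 0.02 and 0.13. Prph was the exception, with r = 0.55 between the NTS and the CVLM (rho = 0.50, adjusted p = 0.0403, permutation) and 0.45 between the NTS and the RVLM (rho = 0.45, adjusted p = 0.0463, permutation), although r between the CVLM and the RVLM was 0.16 (adjusted p = 0.666, permutation). Without the 2 farthest rats the first of these r was 0.49 and the second 0.43. Ache had r of 0.32, 0.38 and 0.44, with adjusted p of 0.189, 0.199 and 0.0667 by permutation. Its rho was 0.34, 0.31 and 0.47, and by rho it passed between the CVLM and the RVLM (adjusted p = 0.0381, permutation).

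**Figure D3:**
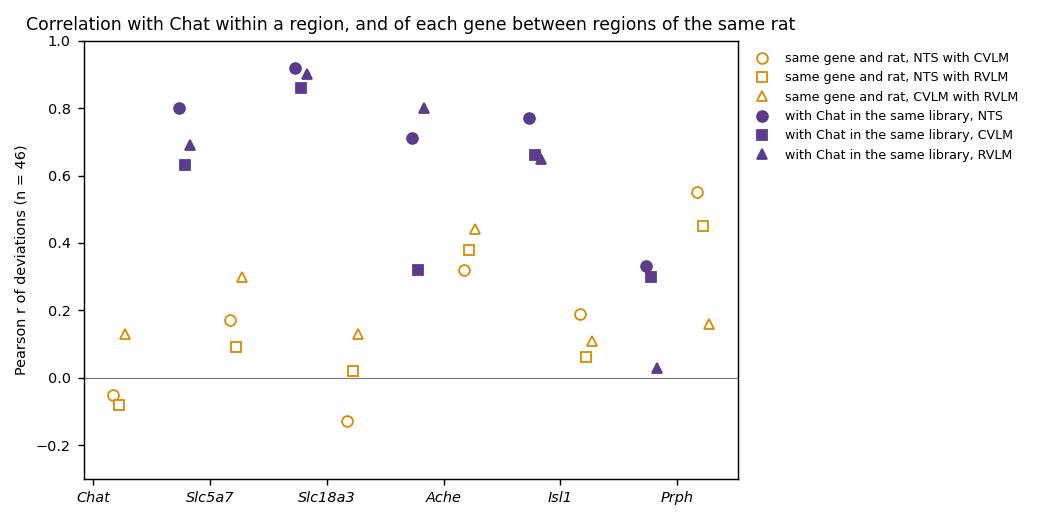
Pearson's r of deviations from group means (vertical axis, n = 46 rats) for each gene: filled symbols give the correlation with Chat in the same library, by region, and open symbols that of the gene with itself between 2 regions of the same rat. For Slc18a3, Slc5a7 and Isl1 the filled symbols lie at 0.63 or above and the open ones at 0.30 or below, whereas Prph has open symbols up to 0.55.

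The comparison of the strains at each age asks whether these genes differ between hypertensive and normotensive rats before, at and after the onset of hypertension. Of the 90 comparisons of 6 genes, 5 ages and 3 regions, 1 passed an adjusted p of 0.05 with edgeR: Chat in the NTS at 8 weeks, the prehypertensive age. Over all genes tested in the 3 regions at the 5 ages, 3.87% of comparisons passed. An unadjusted p under 0.05 was seen in 11 of the 90, and in 28172 of the 203060 comparisons over all genes. Chat was 72.5, 60.8, 76.3, 23.6 and 48.5 CPM in the 5 WKY rats and 45.6, 27.4, 30.1, 25.7 and 29.1 CPM in the 5 SHR rats. Of the WKY rats, 4 were above all SHR rats, and replicate 4, at 23.6 CPM, was below all of them. The log2 fold change was -0.87 (SE 0.27, adjusted p = 0.0471, edgeR). At this age 5.79% of all NTS genes passed the same threshold, and 1 of the 6 genes did.

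The other NTS genes lay in the same direction at 8 weeks without passing the test, apart from Ache, with a fold change near 0. Slc18a3 was 127, 92.9, 91.6, 28.6 and 61.4 CPM in WKY and 59.5, 38.5, 44.2, 36.0 and 38.2 CPM in SHR (log2 -0.92, SE 0.31, adjusted p = 0.0707). Slc5a7 was 177, 115, 285, 90.5 and 130 CPM in WKY and 95.8, 50.1, 90.4, 92.7 and 55.3 CPM in SHR (log2 -1.10, SE 0.35, adjusted p = 0.0533). In both, WKY replicate 4 again lay among or below the SHR rats, and the other 4 WKY rats lay above all of them. Isl1 was 6.28, 3.69, 4.70, 2.10 and 3.46 CPM in WKY and 1.71, 2.05, 1.23, 2.30 and 1.42 CPM in SHR (log2 -1.25, SE 0.45, adjusted p = 0.0847). Prph was 50.2, 145, 104, 51.2 and 80.1 CPM in WKY and 35.3, 64.9, 36.6, 39.4 and 57.3 CPM in SHR (log2 -0.91, SE 0.39, adjusted p = 0.145), with more overlap. Ache was 253 to 431 CPM in WKY and 296 to 426 CPM in SHR (log2 -0.06, SE 0.10, adjusted p = 0.762).

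At 8 weeks the libraries ending in 2 were all WKY, 3 of its 5. With the 2 WKY rats whose libraries end in 1 alone against the 5 SHR rats, the log2 ratio of mean CPM was -1.08 for Chat, -1.35 for Slc18a3, -0.93 for Slc5a7, -1.52 for Isl1, -1.06 for Prph and -0.28 for Ache. With the library number as a term in the fit, the fold change of Chat was -0.86 and its adjusted p was 0.166. The call for Chat was also lost on leaving out any of 8 of the 10 rats of that age (WKY replicates 1, 2, 3 and 5 and SHR replicates 2 to 5), with fold changes of -0.71 to -0.90 and adjusted p up to 0.168, and without WKY replicate 4 it was -1.06 (adjusted p = 0.00978). Summed neuron markers in these NTS libraries averaged 4130 CPM in WKY and 4080 CPM in SHR, near-equal values. Catecholamine neuron markers summed to 193 to 250 CPM in WKY and 117 to 202 CPM in SHR, oligodendrocyte markers averaged 32700 and 39100 CPM, and choroid plexus markers reached 1770 CPM in 1 WKY library against a mean of 2.93 CPM in SHR. The part of these in the result was not tested.

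In the same comparison, 5.79% of all NTS genes passed. Of the 9 further acetylcholine genes 1 did, Slc44a1, a choline transporter (log2 -1.70, adjusted p = 0.0478, edgeR). None of the 7 tested motor neuron genes passed, although their median was -0.95, close to the median of the 6 members, -0.92, where that of all NTS genes was -0.029. None of the 5 neuron markers passed (median -0.08). Of the 4 catecholamine neuron markers, Th passed (log2 -0.56, adjusted p = 0.0349).

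**Figure D4:**
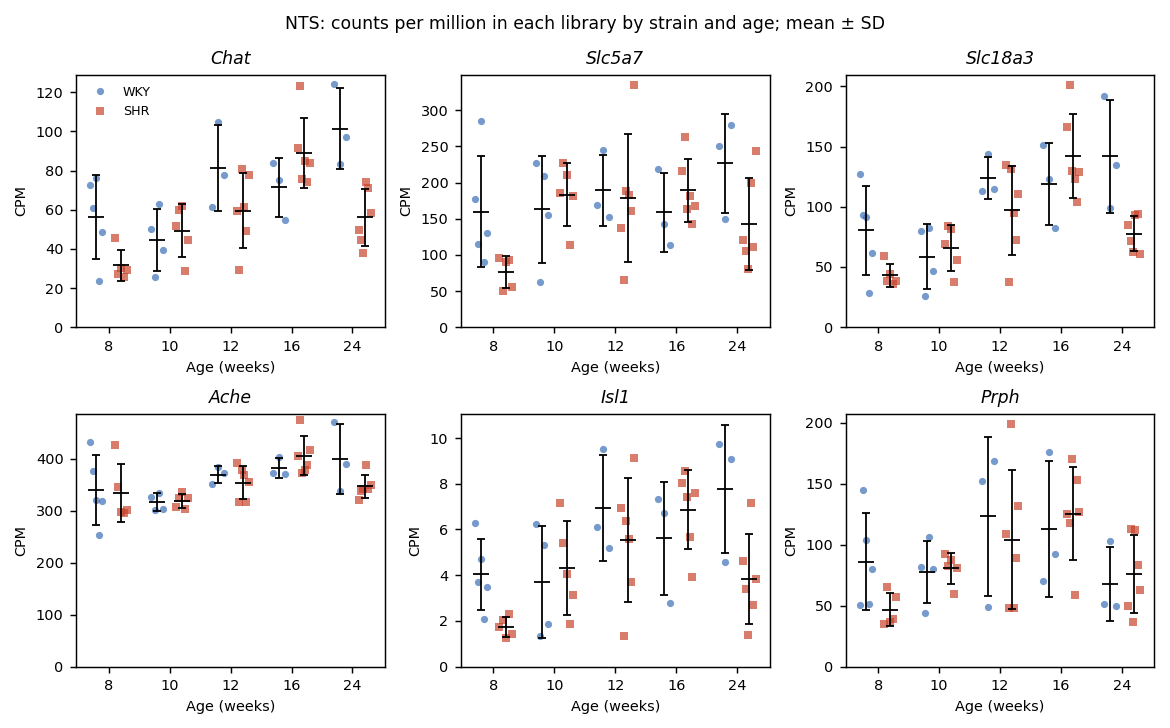
NTS level in CPM of the 6 genes by age in weeks, 1 point per rat, WKY as blue circles and SHR as red squares, with bars at the mean ± SD of each group. The SHR values of Chat are lowest at 8 weeks (mean 31.6 CPM) and highest at 16 weeks (88.9 CPM), and at 24 weeks all 6 lie below the 3 WKY values.

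At 24 weeks, Chat in the NTS was 124, 83.2 and 97.2 CPM in WKY and 38.0 to 74.2 CPM with a median of 54.0 in the 6 SHR rats, so the strains did not overlap, and the log2 fold change was -0.86 (SE 0.29, adjusted p = 0.115). Slc18a3 was 192, 99.1 and 135 CPM in WKY and 61.0 to 93.9 CPM with a median of 78.2 in SHR, again without overlap (log2 -0.87, SE 0.34, adjusted p = 0.209). Isl1 lay at -1.03 (SE 0.45, adjusted p = 0.291), and Prph at 0.17 (adjusted p = 0.936). These were the only 2 of the 30 NTS comparisons of the 6 genes without overlap, where 6.07% of such comparisons over all NTS genes, and 6.17% of those at 24 weeks, had none, so the share is close to the background. At this age 2.46% of all NTS genes passed an adjusted p of 0.05.

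In the CVLM at 24 weeks the difference lay the other way. Slc5a7 was 49.6, 27.6 and 47.7 CPM in WKY and 53.9 to 78.3 CPM in SHR, all 6 above the WKY rats (log2 0.63, SE 0.32, adjusted p = 0.241). It was the only 1 of the 30 CVLM comparisons without overlap, against 6.75% over all CVLM genes and 11.7% of those at 24 weeks. The fold changes of Chat, Slc18a3 and Prph there were 0.74 (SE 0.35), 0.87 and 1.04 (SE 0.46) on the log2 scale, with adjusted p of 0.195, 0.249 and 0.165. The difference between the NTS and the CVLM in the strain effect at 24 weeks, tested directly, was -1.60 for Chat (SE 0.50, adjusted p = 0.636), -1.69 for Slc18a3 and -1.39 for Slc5a7, and it did not pass for any gene of the 6. None of the 90 such tests between regions passed (edgeR, 10 with an unadjusted p under 0.05, none with limma voom). Over the 5 ages, 0.0741% of all genes passed for NTS and CVLM, 0.580% for NTS and RVLM and 0.0185% for CVLM and RVLM. The 10 were 5 of 30, 5 of 30 and 0 of 30 for these pairs. Over all genes, an unadjusted p under 0.05 was seen in 4529, 7192 and 2875 of 70215 tests, respectively. The lowest adjusted p were those at 8 weeks between the NTS and the RVLM, 0.0888 for Chat (difference -1.19, SE 0.40) and 0.0904 for Slc18a3 (-1.34, SE 0.46).

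In the RVLM, the region with the highest levels, no comparison of the strains separated the groups, as 5.74% of those over all RVLM genes did, and none passed. Prph at 8 weeks was 304, 727, 1190, 432 and 315 CPM in WKY and 392, 219, 209, 426 and 274 CPM in SHR (log2 -0.98, SE 0.39, adjusted p = 0.0954), with 3 WKY rats above all SHR rats. Averaged over the 5 ages, none of the 18 comparisons passed (edgeR, 3 with an unadjusted p under 0.05, none with DESeq2), where 11.2% of all NTS genes, 12.3% of CVLM genes and 10.8% of RVLM genes did. An unadjusted p under 0.05 was seen over all genes in 2926 of 13793, 3008 of 13408 and 2862 of 13411. The lowest adjusted p of the 6 genes was that of Chat in the NTS, at -0.33 (SE 0.13, adjusted p = 0.0931).

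**Figure D5:**
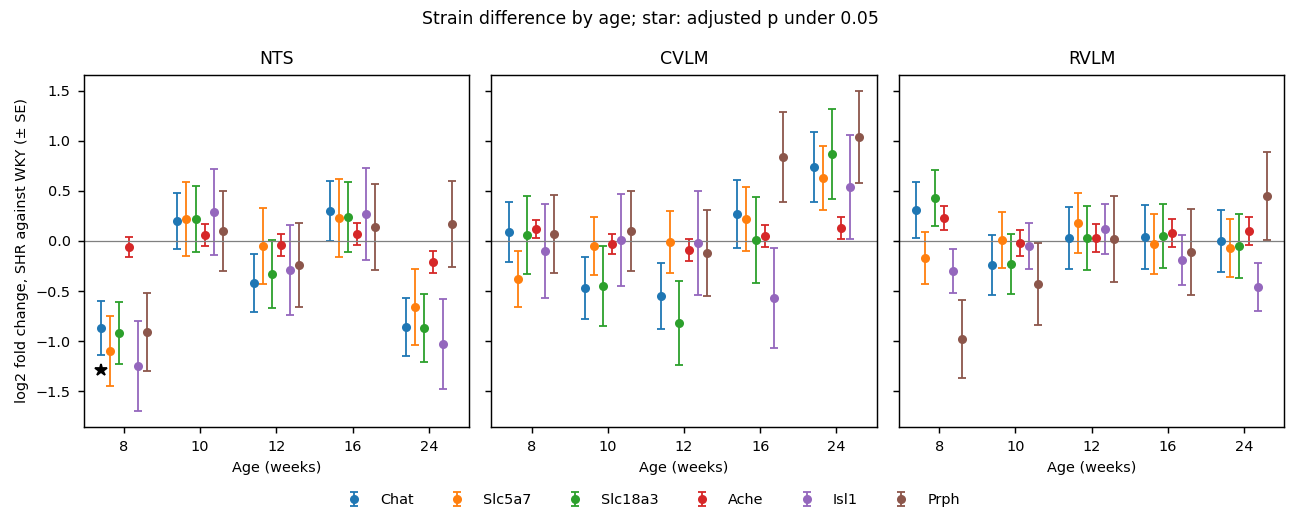
Log2 fold change of SHR against WKY (vertical axis, bars are ± 1 SE) for each gene, by colour, at each age in weeks and in each region, with a star under the comparison with an adjusted p under 0.05. The star marks Chat in the NTS at 8 weeks (-0.87), and at 24 weeks the points of Chat, Slc5a7 and Slc18a3 lie below 0 in the NTS and above 0 in the CVLM.

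In the NTS of SHR, 5 of the 6 genes passed the test of change across the 5 ages, where 18.7% of all NTS genes did (edgeR F test over ages, adjusted p = 0.00341 for Chat, 0.00313 for Slc18a3, 0.0293 for Slc5a7, 0.0135 for Isl1 and 0.045 for Prph). Ache did not pass (adjusted p = 0.0758). Chat rose from 25.7 to 45.6 CPM with a median of 29.1 at 8 weeks to 74.4 to 123 CPM with a median of 84.5 at 16 weeks, without overlap, and lay at 38.0 to 74.2 CPM at 24 weeks. Against 8 weeks its log2 fold change was 0.70 at 10 weeks, 0.94 at 12, 1.49 at 16 (SE 0.26) and 0.80 at 24 weeks.

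Slc18a3 and Isl1 took the same course. Slc18a3 was 36.0 to 59.5 CPM at 8 weeks and 104 to 201 CPM at 16 weeks, and its log2 fold changes against 8 weeks were 0.66, 1.19, 1.71 and 0.83. Isl1 was 1.23 to 2.30 CPM at 8 weeks and 3.94 to 8.55 CPM at 16 weeks, with log2 fold changes of 1.37, 1.71, 1.99 and 1.13. In both, the 8-week and the 16-week groups did not overlap, as in 3.32% of all NTS genes. These were the ages at which both genes were lowest and highest. The share is for the same 2 ages in every gene, not for each gene's own extreme ages, so it does not measure how rare such a gap is. Slc5a7 averaged 76.9, 183, 178, 189 and 143 CPM at the 5 ages, so it was nearly as high at 10 weeks as at 16. Prph had log2 fold changes against 8 weeks of 0.83, 1.18, 1.42 and 0.69. Those of Ache, at -0.01, 0.11, 0.28 and 0.04, were the smallest of the 6.

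The 8-week SHR libraries of the NTS enter both this comparison and the strain comparison at 8 weeks, so the low 8-week values are shared by the 2 results. Among SHR libraries ending in 1, which leave out the 10-week rats, Chat averaged 31.6 CPM at 8 weeks, 55.9 at 12, 88.9 at 16 and 55.5 at 24 weeks, and Isl1 averaged 1.74, 4.80, 6.87 and 3.85 CPM. With the library number as a term, Chat and Slc18a3 still passed, and Slc5a7, Isl1 and Prph did not (adjusted p = 0.211, 0.119 and 0.339). The calls for Chat, Slc18a3 and Isl1 held on leaving out each of the 10 SHR rats of 8 and 10 weeks in turn. Those for Slc5a7 and Prph were lost without some single rats: SHR 8-week replicates 2, 3 and 5 and 10-week replicates 2, 3 and 5 for Slc5a7 (adjusted p up to 0.0932), and SHR 8-week replicates 1, 3, 4 and 5 and 10-week replicates 2 to 5 for Prph (up to 0.0967).

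Other genes moved with them, among them Kcnj14, which the study had named from these libraries for its correlation with acetylcholine genes. In the NTS of SHR across ages, 3 of 9 acetylcholine genes passed (at 16 against 8 weeks, Slc44a1 2.13, Slc10a4 1.55 and Chka 1.34 on the log2 scale). So did 3 of 7 motor neuron genes (Calcb 2.47, Chodl 2.16 and Kcnj14 1.51) and 2 of 4 neurofilament genes (Nefh 1.37 and Ina 0.78). Over all NTS genes, 18.7% passed this test. All 4 oligodendrocyte markers changed in the opposite direction, with Mog at -0.93 and Mbp at -0.73, and their sum went from 39100 CPM at 8 weeks to 21900 CPM at 16 weeks in SHR and from 32700 to 23200 CPM in WKY. The part of this shift in the rise of the cholinergic genes was not tested.

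In the NTS of WKY none of the 6 genes passed across ages with edgeR, where 12.5% of all genes did. Of the 6, 2 had an unadjusted p under 0.05 and passed with DESeq2. Over all NTS genes, 4249 of 13793 had an unadjusted p under 0.05 with edgeR. Chat had an adjusted p of 0.0514 and Slc18a3 of 0.0615, and Chat was 23.6 to 76.3 CPM at 8 weeks, 25.5 to 63.0 CPM at 10 weeks and 83.2 to 124 CPM at 24 weeks. Whether the strains differ in their course with age was tested as the interaction. None of the 18 tests passed with edgeR, and 2 had an unadjusted p under 0.05, a count given here without the share over all genes. Chat in the NTS had an adjusted p of 0.378, and 0.0145% of all NTS genes, 0.0224% of CVLM genes and 0.00746% of RVLM genes passed. The course in SHR is therefore not shown to differ from that in WKY.

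In the RVLM of SHR, Slc5a7 passed across ages (adjusted p = 0.0124, 14.1% of all genes). It was 643 to 1100 CPM at 10 weeks and 254 to 597 CPM at 16 weeks, without overlap, at log2 fold changes against 8 weeks of 0.58 and -0.67. Over all RVLM genes, 16.7% did not overlap between these 2 ages, which were the extreme ages of Slc5a7 and not of every gene. In WKY Slc5a7 was 670 to 985 CPM at 10 weeks and 238 to 563 CPM at 16 weeks, where it did not pass. All 10-week libraries end in 2 and all 16-week libraries in 1, and with the library number as a term the adjusted p in SHR was 0.803. None of the 6 genes passed with edgeR in the CVLM of WKY or SHR, where 22.2% and 20.0% of all genes did, or in the RVLM of WKY, where 6.79% did. Unadjusted p-values under 0.05 numbered 2, 1 and 3 of the 6 in these. Over all genes they numbered 4825 of 13408, 4706 of 13408 and 3884 of 13411. DESeq2 called 1, 0 and 2 of the 6. In the RVLM of WKY, Prph lay at a log2 fold change of -1.65 at 24 against 8 weeks (adjusted p = 0.0851 across ages).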

How the data were processed

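The authors sequenced RNA of brainstem micropunches as paired-end reads, aligned them to the rat rn6 genome with STAR inside RSEM, and deposited RSEM expected counts per gene, 1 table per region. ComBat_seq batch adjustment is named in the methods, and whether the deposited values carry it was not stated; 4.88% to 5.02% of them were not whole. Here they were rounded and scaled by TMM factors, and genes with a largest rlog value of at least 3.5, as in the study, were kept (13793, 13408 and 13411 of 32883 in the NTS, CVLM and RVLM). Main tests were edgeR 4.0.16 quasi-likelihood tests in R 4.3.3 over the 46 libraries of a region with 10 groups of strain and age, and over all libraries with the rat as a block for comparisons between regions, with Benjamini-Hochberg adjustment over all genes tested and a call at 0.05. Covariation used log2 CPM (prior count 2) less the group mean, with two-sided permutation tests of rats within groups. DESeq2 1.42.0, its size factors, no filter, a term for the library number, single-age fits, a replicate block and limma 3.58.1 voom were alternatives, and fits were tested on simulated counts. The 6 genes, the gene lists and the rule for likeness to Chat were chosen with earlier results of these data known. The genes named are the 6, the listed genes with the largest changes, and the 5 unlisted genes most like Chat per region. Correlations between regions of a rat and the interaction of strain and age were added after the data were seen. Values of single genes on 2 of the lists are not reported here.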

Additional observations from a re-analysis of the deposited data

Results flagged for a closer look

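In 6 of 126 groups of 4 to 6 rats, 1 rat lay so far from the others of its group that the gap passed Dixon's 95% limit, and chance alone flags about 6.3 of 126 such groups. In the NTS, Chat was 45.6 CPM in SHR 8-week replicate 1, where the other 4 rats lay between 25.7 and 30.1 CPM, and 123 CPM in SHR 16-week replicate 2, where the other 5 lay between 74.4 and 91.5 CPM. In the CVLM, Slc18a3 was 44.6 CPM in SHR 8-week replicate 2, against 13.0 to 17.1 CPM in its group, and Ache was 483 CPM in the same library, against 424 to 440 CPM. In SHR 24-week replicate 4 of the CVLM, Slc18a3 was 57.9 CPM, against 19.3 to 29.7 CPM, and Isl1 was 5.03 CPM, against 2.18 to 2.97 CPM. In the pair of CVLM libraries that stood apart, 2 members did so at once.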

How the results depend on the processing

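Of the 216 comparisons of the 6 genes between strains or regions, or of the strain effect between regions, none of the 19 that passed the test changed direction under any alternative, whereas 79 of the 197 that did not pass changed sign under at least 1, each with a log2 value of at most 0.38 in size as reported. All 18 comparisons between regions passed under each. The strain comparisons by age in the NTS gave 1 call, 3 with DESeq2, and 0 with DESeq2 size factors, with no filter, with the library number as a term or with each age fitted alone; the adjusted p of Chat at 8 weeks was 0.0267, 0.0552, 0.0913, 0.166 and 0.165 in that order. DESeq2 also called Slc5a7 (0.0251) and Slc18a3 (0.041) there. Across ages, the NTS of SHR gave 5 calls, 3 with no filter and 2 with the library number. The NTS of WKY gave 0, 2 with DESeq2 and 1 with its size factors. DESeq2 called 1 gene in the CVLM of WKY, 2 in the RVLM of WKY and 2 in the RVLM of SHR, and the library number left 0 in the last. Ache followed Chat in the CVLM within libraries ending in 1 (r = 0.41, adjusted p = 0.0374, permutation).

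At an adjusted p of 0.2, the strain comparisons by age gave 6 calls for the NTS, 2 for the CVLM and 1 for the RVLM, the mean over ages 2 for the NTS, and the strain effect between NTS and RVLM 4. The tests across ages then gave 2 in the NTS of WKY, 2 and 1 in the CVLM of WKY and SHR, and 3 and 2 in the RVLM of WKY and SHR. The share of all genes passing at 0.2, or passing with DESeq2, is not given here. The counts at 0.2 and those with DESeq2 therefore cannot be set against a background.

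Leaving out 1 rat at a time from the groups of 3 to 5 gave 0 to 3 calls by age for the NTS and 0 to 1 for the RVLM, 0 to 1 for the mean over ages in the NTS and likewise in the CVLM, 0 to 2 across ages in the NTS of WKY, 3 to 6 in the NTS of SHR, 0 to 1 in the CVLM of WKY and 0 to 2 in the RVLM of WKY. The strain effect between NTS and RVLM gave 0 to 2 with limma voom, which was used because leaving out rats in the edgeR fit with the rat as a block was not run.

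With the replicate number as a block, Chat in the NTS at 8 weeks was -0.80 (adjusted p = 0.0699) and Prph passed instead (-0.84, 0.0343). The labels tie no replicate number to a shared litter, batch or day. Of 54 same-numbered pairs, 32 had a correlation of deviations over 0.1 (range -0.33 to 0.55), and 22 correlated best with their own number. In 4 of the 15 sets of a region and an age every pair was over 0.1 (NTS at 12 and 24 weeks, CVLM at 10 and 12 weeks), and the block changed no call of the 6 genes in these (Chat in the NTS at 24 weeks was -1.19, adjusted p = 0.0952).

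In the NTS at 24 weeks, with 3 WKY rats, the strain difference of -0.86 in Chat did not pass (SE 0.29, unadjusted p = 0.00455, edgeR). That of -0.87 at 8 weeks, with 5 WKY rats, did (SE 0.27, unadjusted p = 0.00253, edgeR). The adjustment is made over all genes of an age, and 798 NTS genes passed at 8 weeks against 339 at 24 weeks. Differences of that size may thus go uncalled. Isl1 in the CVLM rests on 4 to 63 counts.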
